A study of Drosophila melanogaster with 48 samples.

Results

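The 10 genes described here encode cytosolic aminoacyl-tRNA synthetases of Drosophila melanogaster: ThrRS, AlaRS, ArgRS, AspRS, GluProRS, GlyRS, LysRS, SerRS, TyrRS and ValRS. They were found by symbol in the FlyBase/BDGP6 annotation and are 10 of the 17481 genes in the count table. ThrRS was chosen by its stage 5 counts, which were lower in the Zambia lines than in the Raleigh lines, and the other 9 were added as its family for comparison. For this reason the stage 5 difference of ThrRS between populations, its stage change and its interaction are given as values with no test. The remaining 10 cytosolic synthetase genes, which were not members, were kept as a list for comparison.

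RNA was sequenced from single embryos at stage 2, when all RNA is maternal, and at late stage 5, after the zygotic genome has been activated. Each stage had 4 inbred isofemale lines from Raleigh, North Carolina (RAL307, RAL357, RAL360 and RAL517) and 4 from Siavonga, Zambia (ZI050, ZI094, ZI160 and ZI470). From each line 3 embryos were taken at a stage, which gave 48 embryos and 12 per population and stage. No treatment and no engineered allele are named in the labels. The Raleigh lines were inbred for longer than the Zambia lines, so that population and inbreeding history cannot be told apart. The stage 5 embryos were genotyped and kept only if XY, whereas the sex of the stage 2 embryos was not known. The libraries were poly(A)-selected, so a level here is a level of polyadenylated RNA in a whole embryo, and fewer cells that express a gene cannot be told apart from less of its RNA per cell.

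An aminoacyl-tRNA synthetase joins one amino acid to its own tRNAs, and the ribosome can read a codon only if the matching tRNA has been charged. In animals several synthetases, among them those for arginine, aspartate, lysine, and glutamate and proline, sit in a multi-synthetase complex held together by the scaffold proteins AIMP1, AIMP2 and AIMP3. Uncharged tRNA is sensed by the kinase Gcn2, which lowers translation and raises the translation of the transcription factor crc, the fly relative of ATF4. The embryo starts development with synthetase mRNA made in the mother's nurse cells. During the maternal to zygotic transition (MZT) many maternal mRNAs are degraded while zygotic transcription begins, so that a stage 5 level can hold RNA of both sources.

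The 47 deeper libraries held between 25.09 and 30.78 M counts (M, 1000000 counts). Replicate 3 of RAL360 at stage 5 held 0.341 M, where 3 counts correspond to 8.8 CPM (counts per 1000000 counts) against a median of 0.104 CPM over all libraries. Where a call, a direction or an overlap of a member turns on that library, the value without it is given too. Maternal and zygotic marker genes matched the stage labels: the mean of osk, a maternal germ plasm gene, was 1107 CPM in Raleigh at stage 2 and 6.11 CPM at stage 5, and that of the pair-rule gene ftz was 0.59 and 407 CPM. All 3 maternal markers were lower and all 4 zygotic markers were higher at stage 5 in both populations. Levels are given in CPM scaled by edgeR's TMM factors. A gene was called differentially expressed (DE) where edgeR's quasi-likelihood test gave an adjusted p under 0.01 over all genes tested. Each embryo counted as a replicate, although the 3 embryos of a line share a genotype, so p-values between populations measure the spread among embryos rather than among lines. With the counts of each line summed, 0 of 7566 genes tested were called between populations at stage 2 and 1 of 10000 at stage 5. In the interaction 8 of 10193 were called. A call lost under those sums is therefore common to nearly all genes.

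ThrRS (FBgn0027081), which charges the threonine tRNAs, lies on chromosome 2L at 12103751 to 12107170 on the plus strand (BDGP6), with 4 annotated transcripts and a merged exon length of 2.896 kb. No other annotated gene overlaps it. At stage 2 the 12 Raleigh embryos held 193.3 to 274.4 CPM of ThrRS RNA, with a median of 217.9. The 12 Zambia embryos held 164.3 to 242.3 CPM, with a median of 197.8. The embryo ranges overlapped over most of their length. The line means ran from 202.8 to 236.5 CPM in Raleigh and from 191.3 to 211.5 CPM in Zambia. They overlapped only through RAL307, at 202.8 CPM. RAL357 (233.6 CPM), RAL360 (236.5 CPM) and RAL517 (226.7 CPM) lay above every Zambia line. The log2 difference of Zambia against Raleigh was -0.14 (SE 0.06), which was not called by edgeR's quasi-likelihood test (adjusted p = 0.0864).

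At stage 5 the Raleigh embryos held 134.6 to 276.9 CPM of ThrRS RNA with a median of 221.8. The Zambia embryos held 27.41 to 40.56 CPM with a median of 35.72. No Zambia embryo reached the lowest Raleigh embryo, and the line means were equally separate. The mean of the 4 Raleigh line means was 214.6 ± 44.5 CPM (SD, n = 4 lines) and that of the Zambia lines 35.1 ± 2.55 CPM, a ratio of 6.11. The fitted log2 difference was -2.61 (SE 0.12). Of all genes tested at stage 5, 0.69% had embryos that did not overlap between the populations. ThrRS was chosen on this contrast, so nothing is read from that share. In the shallow library ThrRS had 93 counts, or 272.1 CPM, and without it the other 11 Raleigh embryos still held 134.6 to 276.9 CPM.

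The Raleigh lines were more spread than the Zambia lines in ThrRS at stage 5. In RAL307 the 3 embryos held 156.1, 156.0 and 134.6 CPM. In RAL357, whose 3 embryos all carry the same replicate number and are called a, b and c here, the values were 160.6, 276.9 and 267.5 CPM. Embryo a of RAL357 thus sat at the level of RAL307, while embryos b and c were at the level of the highest Raleigh embryos. RAL360 had 269.7, 197.3 and 272.1 CPM, and RAL517 had 221.9, 221.7 and 241.1 CPM. The ThrRS means of the 4 Zambia lines were close together, at 32.4 ± 4.42 CPM in ZI050, 33.7 ± 3.75 in ZI094, 38.0 ± 2.72 in ZI160 and 36.5 ± 1.24 in ZI470 (SD, n = 3 embryos).

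At stage 5 the test of any ThrRS difference among the 4 lines of one population used the embryos by which the gene was chosen. Choice for a gap between populations can favour a small spread within them. The stage 5 p-values are therefore given as a description, and nothing is read from them. By edgeR's quasi-likelihood test ThrRS was not called among the Raleigh lines at stage 5 (adjusted p = 0.0206) or among the Zambia lines (adjusted p = 0.242). Without embryo a of RAL357 the Raleigh difference was called (adjusted p = 0.00075), with RAL307 the lowest line. At stage 2 the adjusted p was 0.231 among the Raleigh lines and 0.671 among the Zambia lines.

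**Figure D1:**
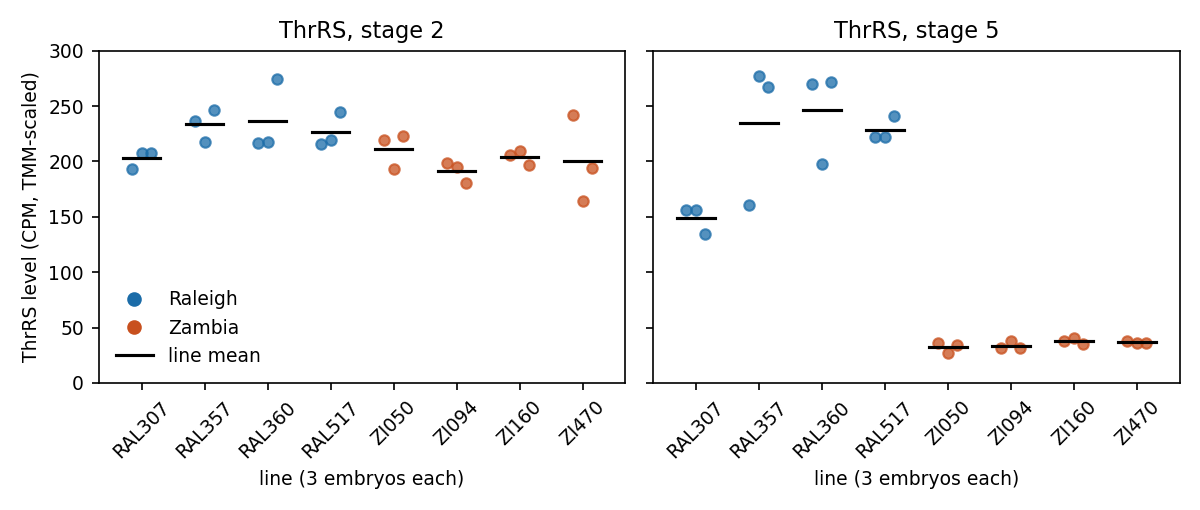
ThrRS RNA in CPM (vertical axis) in each of the 48 embryos, by line and stage; points are embryos and bars are line means. At stage 2 the lines of both populations overlap, while at stage 5 the Raleigh embryos lie between 134.6 and 276.9 CPM and the Zambia embryos between 27.41 and 40.56 CPM.

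Seen against its own maternal level, ThrRS RNA in the Raleigh lines stayed near the stage 2 level: RAL307 held 73.4% of its stage 2 mean at stage 5, RAL357 held 100.6%, RAL360 held 104.2% (98.7% without the shallow library) and RAL517 held 100.7%. In Zambia ZI050 held 15.3%, ZI094 held 17.6%, ZI160 held 18.6% and ZI470 held 18.3%. The fitted log2 stage change of ThrRS was -0.11 (SE 0.08) in Raleigh and -2.60 (SE 0.07) in Zambia. The Raleigh value was 0.07 with DESeq2's size factors, so it had no steady direction. The stage change in Zambia minus that in Raleigh was -2.45 on the log2 scale (SE 0.13).

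The share of ThrRS within the family is given as a description, since ThrRS was chosen by its stage 5 counts. As a share of the summed CPM of the 10 members, ThrRS took 12.62% to 16.77% of the total in Raleigh embryos at stage 2, with a median of 13.54%. In Zambia it took 11.04% to 13.69%, with a median of 12.32%. At stage 5 the share was 18.03% to 29.52% in Raleigh, with a median of 23.82%, and 3.31% to 6.88% in Zambia, with a median of 4.75%. The median share was higher at stage 5 than at stage 2 in Raleigh and lower in Zambia. Nothing is read from this, because the choice of ThrRS used the stage 5 values. The summed CPM of the other 9 members was close between the populations at stage 5, at 685.1 ± 54.3 in Raleigh and 702.9 ± 137 in Zambia (SD, n = 4 lines), and the line ranges overlapped.

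Levels of different genes were compared per kb of merged exon length. At stage 2 the mean over the 8 lines was highest for LysRS, with 102.0 CPM per kb, followed by AlaRS with 75.2 and ThrRS with 73.7. SerRS with 68.4 and GlyRS with 64.3 CPM per kb came next, then TyrRS with 51.5, ValRS with 48.2, GluProRS with 44.4 and ArgRS with 44.0. AspRS was lowest, with 22.3 CPM per kb. Between neighbours in this order the line means did not overlap only from LysRS to AlaRS, from GlyRS to TyrRS and from ArgRS to AspRS.

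At stage 5 the order per kb was led in Raleigh by TyrRS (lines at 84.0 to 114.2 CPM per kb), LysRS (mean 85.5) and ThrRS (mean 74.1), whose line ranges overlapped from one to the next. ThrRS was then separated from AlaRS (22.4 CPM per kb) by a gap, with a lowest ThrRS line at 51.4 and a highest AlaRS line at 24.1. In Zambia LysRS (120.7 CPM per kb) and TyrRS (97.5) led again, and ThrRS (12.1) ranked 5 of 10, between GluProRS (15.2) and ValRS (10.4), overlapping both. AspRS was lowest in both populations, with 3.29 CPM per kb in Raleigh and 3.82 in Zambia. AspRS shares exon sequence in the annotation with Nmda1 and with antisense genes, GluProRS with an antisense RNA and SerRS with CG17260. The strand setting of the counting is not given in the sources used here, so the counts of these 3 members are less certain. The other 7 members overlap no annotated gene.

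**Figure D2:**
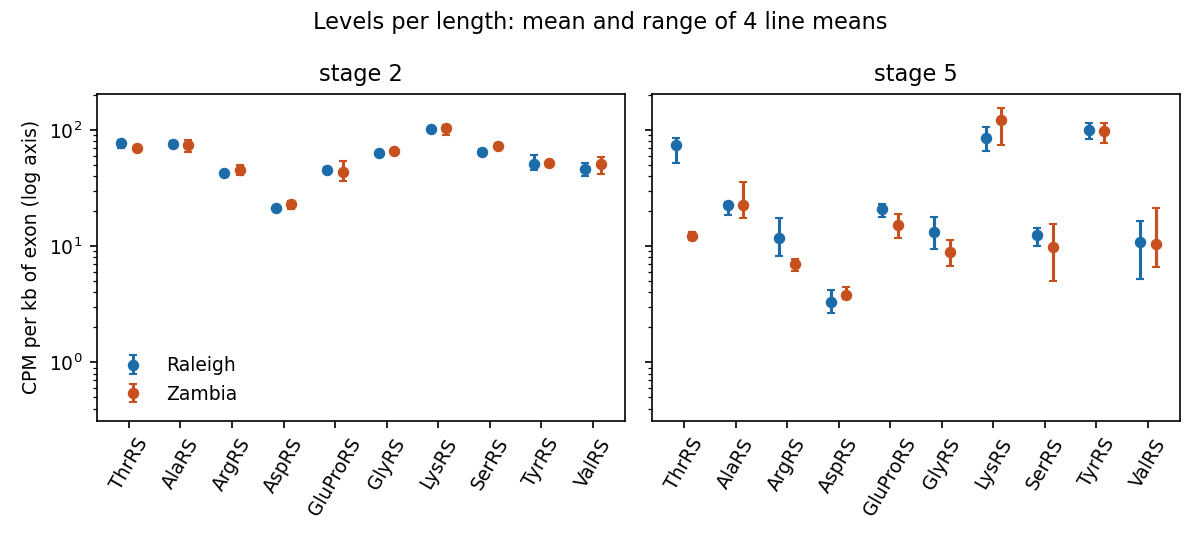
Level of each of the 10 synthetase genes in CPM per kb of exon (logarithmic axis) at stage 2 and stage 5, with Raleigh and Zambia drawn apart; points are means over 4 lines and bars span the lowest to the highest line. ThrRS at stage 5 averages 74.1 CPM per kb in Raleigh and 12.1 in Zambia, where LysRS and TyrRS are at the top in Zambia and overlap ThrRS at the top in Raleigh. AspRS is lowest at both stages.

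The second question was how the family moved across the MZT. Of the 9 members other than ThrRS, 8 fell and TyrRS rose in Raleigh by edgeR's quasi-likelihood test. In Zambia 7 fell, TyrRS rose and LysRS was not called. Over all genes tested, 35.8% were called lower and 52.9% higher at stage 5 in Raleigh, and 36.1% lower and 52.5% higher in Zambia. The median log2 stage change of the 9 members was -2.02 in Raleigh, against 0.56 over all genes tested, and -2.57 in Zambia, against 0.55. With DESeq2's size factors the median of all genes was higher by 0.18 in Raleigh and by 0.31 in Zambia, and with counts summed over the embryos of each line it was lower by 0.17 and 0.15. Stage changes are therefore relative to that median. Embryo sex cannot be told apart from stage, which touches ArgRS and LysRS, the 2 members on the X chromosome.

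Among the member genes named above as part of the complex, AspRS, which charges aspartate tRNAs, fell most in Raleigh. Synthetases outside the member list were left out of this ranking. AspRS had a log2 change of -2.61 (SE 0.10) in Raleigh and of -2.68 (SE 0.08) in Zambia. At stage 5 its lines held 12.3% to 19.4% of their stage 2 level in Raleigh and 14.3% to 21.2% in Zambia. The lowest of these was RAL360, whose shallow library had 0 counts of AspRS, and without that library RAL360 held 18.5% and RAL307 was lowest at 14.0%. ArgRS, for arginine, changed by -2.02 (SE 0.15) in Raleigh and by -2.78 (SE 0.06) in Zambia. GluProRS, a single protein with the activities for glutamate and proline, changed by -1.13 (SE 0.09) and -1.60 (SE 0.11). These 3 were lower at stage 5 in all 8 lines. By edgeR's quasi-likelihood test the largest adjusted p of the 3, that of GluProRS in Raleigh, was 2.78e-11.

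LysRS, the enzyme for lysine and the member with the highest maternal level per length, had a small fitted change in each population. Single lines moved in both directions, from 67.15% of the stage 2 level in RAL307 to 147.8% in ZI050. Its line means went from 219.9–239.9 CPM at stage 2 to 147.7–240.6 CPM at stage 5 in Raleigh. In Zambia they went from 206.0–247.4 CPM to 167.4–346.9 CPM. The level was lower at stage 5 in 3 of 4 Raleigh lines and in 1 of 4 Zambia lines, ZI160. The log2 change was -0.28 (SE 0.08) in Raleigh (adjusted p = 0.00176, edgeR's quasi-likelihood test) and 0.11 (SE 0.08) in Zambia (adjusted p = 0.185). With DESeq2's size factors the Raleigh change was -0.09 (adjusted p = 0.254) and was not called, whereas that in Zambia was 0.42 and was called. Without replicate 3 of RAL307 at stage 2 the Raleigh call was also lost, at an adjusted p of 0.0109.

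Of the members outside the complex, SerRS changed by -2.35 on the log2 scale (SE 0.07) in Raleigh and by -3.15 (SE 0.18) in Zambia, where ZI160 kept 6.90% of its stage 2 level. GlyRS changed by -2.31 (SE 0.17) and -3.00 (SE 0.10), ValRS by -2.24 (SE 0.18) and -2.57 (SE 0.17), and AlaRS by -1.75 (SE 0.07) and -1.88 (SE 0.10). All 4 were called lower in both populations. TyrRS, which charges tyrosine tRNAs, went the other way in all 8 lines. Its mean over lines went from 90.7 ± 12.6 CPM at stage 2 to 177.1 ± 22.5 at stage 5 in Raleigh and from 91.7 ± 3.45 to 172.6 ± 28.7 CPM in Zambia (SD, n = 4 lines). The log2 change of TyrRS was 0.96 (SE 0.04) in Raleigh (adjusted p = 3.17e-16, edgeR's quasi-likelihood test) and 0.82 (SE 0.05) in Zambia (adjusted p = 5.44e-13). In the order of stage changes, ThrRS sat in Raleigh between LysRS (-0.28) and TyrRS (0.96), and in Zambia between AspRS (-2.68) and ValRS (-2.57).

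**Figure D3:**
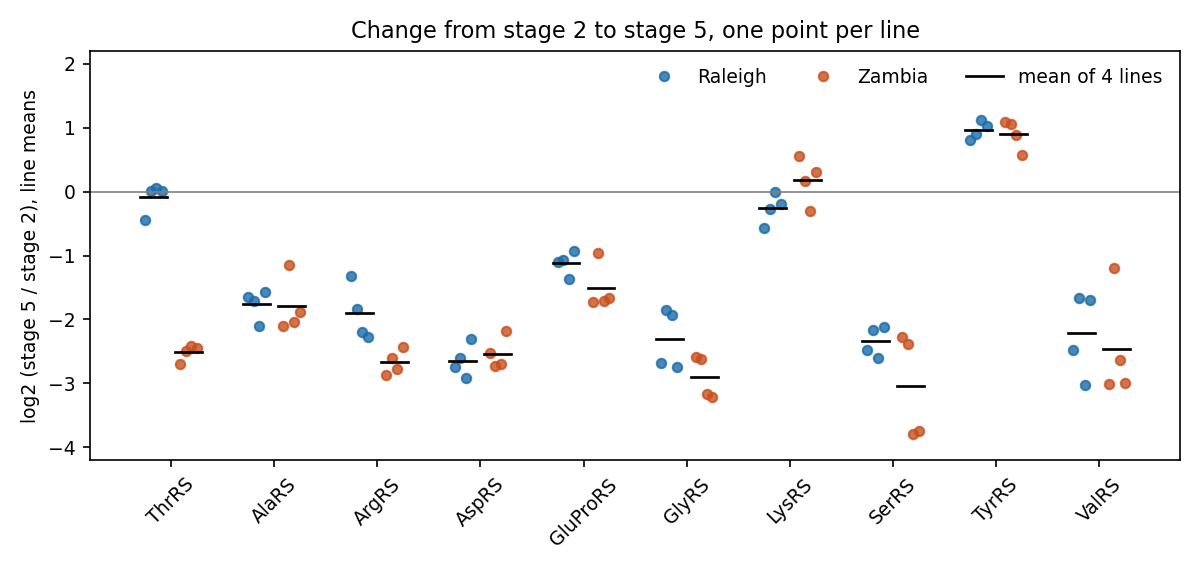
Log2 ratio of stage 5 to stage 2 CPM (vertical axis) for the 10 members; each point is a line, with Raleigh and Zambia in separate colours, and the horizontal marks are means of 4 lines. For ThrRS the Raleigh lines lie between -0.44 and 0.06 and the Zambia lines between -2.69 and -2.41, with no overlap. TyrRS lies above 0 and AspRS below -2 in every line.

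Whether the stage change differed between the populations was tested as an interaction over the 48 embryos, in which 5.57% of all genes tested were called. This fit left out line, although both stages came from the same lines. Of the 9 members other than ThrRS it called only ArgRS, with a log2 interaction of -0.81 (SE 0.18, adjusted p = 0.00198, edgeR's quasi-likelihood test). ArgRS lines kept 20.3% to 39.9% of the stage 2 level in Raleigh and 13.4% to 18.1% in Zambia. These ranges did not overlap, but without the shallow library RAL360 kept 12.7% and they did. The interaction itself was called with each embryo left out in turn, that library included. The call was lost with counts summed per line (adjusted p = 0.559) and with the replicate number as a block (adjusted p = 0.0138). Sums per line called only 8 of all 10193 genes tested. LysRS (0.47, SE 0.16, adjusted p = 0.0383) and GlyRS (-0.65, SE 0.22, adjusted p = 0.043) did not pass in the fit without line. The values of AlaRS (0.01), AspRS (0.00), TyrRS (-0.06) and ValRS (-0.23) were within 1 SE of 0, and GluProRS (-0.41, SE 0.15) and SerRS (-0.57, SE 0.23) were not called either. With line as a covariate, and with limma voom and line as a random block, 3 members were called: ArgRS, LysRS and SerRS. In the fit without line the median interaction of the 9 was -0.23, against 0.03 over all genes.

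The third question was which members differed between populations at one stage. At stage 2, where 6.75% of all genes tested were called, 1 of the 10 members was called. This was SerRS, the synthetase for serine. Its line means were 131.1, 124.7, 118.2 and 116.0 CPM in RAL307, RAL357, RAL360 and RAL517, and 146.1, 133.3, 139.9 and 136.3 CPM in ZI050, ZI094, ZI160 and ZI470. Every Zambia line lay above every Raleigh line, while single embryos of the populations overlapped. The log2 difference of SerRS was 0.19 (SE 0.04, adjusted p = 0.000973, edgeR's quasi-likelihood test). SerRS was the 1 member whose stage 2 line means did not overlap, against 5.95% of all genes tested. With lines as replicates it was not called (adjusted p = 0.319 with sums per line and 0.0749 with limma voom and line as a random block). Of all 7566 genes tested these fits called 0 and 27. The other members differed by -0.14 (ThrRS) to 0.17 (ValRS) on the log2 scale.

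At stage 5, 13.3% of all genes tested were called. Of the 9 members other than ThrRS, ArgRS and GluProRS were lower in Zambia, none was called higher, and the median log2 difference was -0.08, against 0.00 over all genes. ArgRS embryos held 10.64 to 37.32 CPM in Raleigh with a median of 24.94 and 11.66 to 18.28 CPM in Zambia with a median of 14.5. The log2 difference of ArgRS was -0.72 (SE 0.18, adjusted p = 0.00441, edgeR's quasi-likelihood test). The Raleigh lines were far apart, at 37.2 ± 0.10 CPM in RAL307, 25.8 ± 1.47 in RAL357, 19.4 ± 13.6 in RAL360 and 17.6 ± 1.39 in RAL517 (SD, n = 3 embryos).

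With all libraries the ArgRS line means of the populations did not overlap, as for 7.37% of all genes tested. This rested on the shallow library. It held 12 counts of ArgRS, or 35.12 CPM, while the other RAL360 embryos held 10.64 and 12.44 CPM. Without it the RAL360 mean was 11.5 CPM, below every Zambia line, although the log2 difference remained at -0.69 and was called (adjusted p = 0.00658). The ArgRS call was lost with sums per line (adjusted p = 0.415), with limma voom and line as a random block (-0.40, adjusted p = 0.461) and with the replicate number as a block (adjusted p = 0.0262). Of all 10000 genes tested, sums per line called 1 and voom called 79.

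GluProRS embryos held 78.02 to 133.9 CPM in Raleigh at stage 5, with a median of 117.5. In Zambia they held 55.88 to 116.2 CPM, with a median of 82.1. The embryo ranges overlapped, and so did the line means, since ZI094 at 102.4 CPM was above RAL360 at 96.9. The log2 difference of GluProRS was -0.46 (SE 0.11, adjusted p = 0.00275, edgeR's quasi-likelihood test). The call was lost with lines as replicates (adjusted p = 0.326 with sums per line and 0.192 with limma voom). These fits called 1 and 79 of all 10000 genes tested.

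LysRS had the highest difference in favour of Zambia among the members, at 0.50 on the log2 scale (SE 0.15), with an adjusted p of 0.0148 by edgeR's quasi-likelihood test and of 0.00795 by DESeq2's likelihood ratio test. Its embryos held 106.0 to 291.9 CPM in Raleigh and 161.8 to 358.8 CPM in Zambia. GlyRS differed by -0.59 (SE 0.21, adjusted p = 0.0431) and SerRS by -0.39 (SE 0.23, adjusted p = 0.208). AlaRS (-0.01), TyrRS (-0.04), ValRS (-0.08) and AspRS (0.13) differed by less than 1 SE. The SE of ValRS was 0.30, so that a difference of that size was not detectable.

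**Figure D4:**
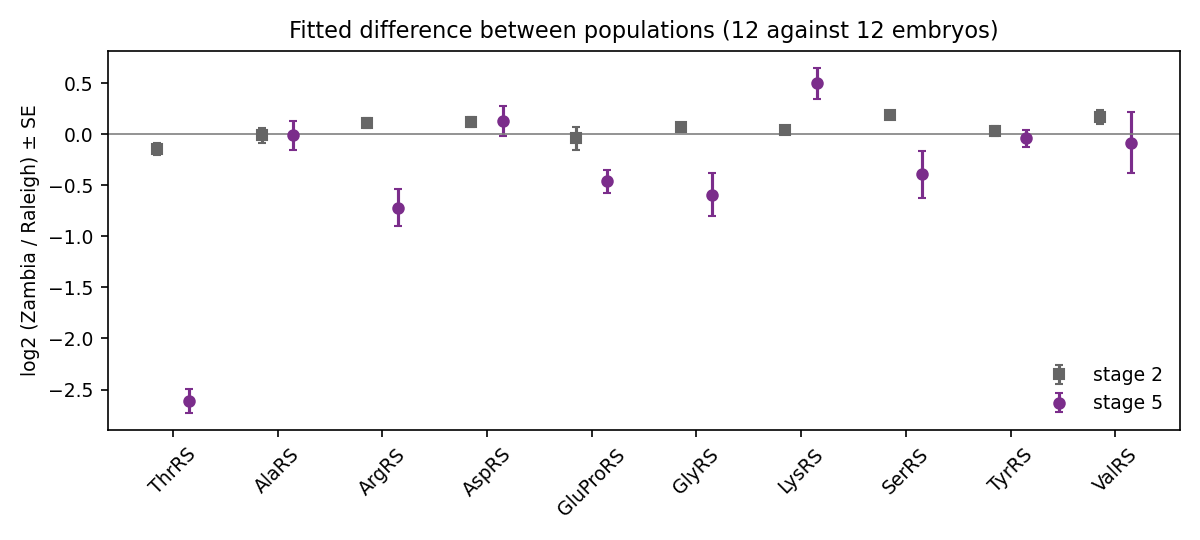
Log2 difference of Zambia against Raleigh (vertical axis) for the 10 members at stage 2 and stage 5; points are fitted values and bars are standard errors. At stage 2 all members lie between -0.14 and 0.19, and at stage 5 ThrRS, on whose value it was chosen, lies at -2.61 and the others between -0.72 and 0.50.

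The fourth question was how the members differed among the lines of one population. At stage 2 TyrRS was called among the Raleigh lines, 1 of the 10 members, where 20.4% of all genes tested were called. Its line means ran from 79.3 ± 7.34 CPM in RAL360 to 108.3 ± 3.38 in RAL357 (SD, n = 3 embryos; adjusted p = 0.00465, edgeR's quasi-likelihood test). The call was lost when any one of 8 embryos was left out (the 3 of RAL357, the 3 of RAL517 and replicates 1 and 2 of RAL360), with adjusted p up to 0.0272. Among the Zambia lines at stage 2, where 16.8% of all genes were called, LysRS and ValRS were called. ValRS ran from 142.6 ± 4.57 CPM in ZI160 to 200.9 ± 4.47 in ZI050 (adjusted p = 0.000367).

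LysRS ran from 206.0 ± 4.10 CPM in ZI160 to 247.4 ± 6.51 in ZI470 at stage 2 (SD, n = 3 embryos; adjusted p = 0.0047, edgeR's quasi-likelihood test). That call was lost when any one of 7 embryos was left out (the 3 of ZI160, replicates 1 and 3 of ZI050 and replicates 2 and 3 of ZI094), with adjusted p up to 0.0227. Without replicate 1 of ZI470 at stage 2, 5 members were called among the Zambia lines in place of 2: AlaRS, ArgRS, GluProRS, LysRS and ValRS.

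At stage 5 ArgRS, TyrRS and ValRS were called among the Raleigh lines, 3 of 10 members, where 24% of all genes tested were called. ValRS, for valine, was spread most. Its means were 56.0 ± 4.23 CPM in RAL357, 49.1 ± 3.19 in RAL517, 24.2 ± 2.31 in RAL307 and 17.8 ± 8.06 in RAL360 (13.5 without the shallow library), 2 higher and 2 lower lines (SD, n = 3 embryos; adjusted p = 3.34e-05, edgeR's quasi-likelihood test). ArgRS had an adjusted p of 0.000824. TyrRS, from 148.8 CPM in RAL307 to 202.3 in RAL357, had one of 0.00638, and its call was lost when any one of 8 embryos was left out (the 3 of RAL307, the 3 of RAL357 and replicates 1 and 3 of RAL517), with adjusted p up to 0.0344. RAL357 had the highest mean of both TyrRS and ValRS among the Raleigh lines at both stages.

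Among the Zambia lines at stage 5, 6 of the 10 members were called, where 47.1% of all genes tested were called. They were AlaRS, GluProRS, LysRS, SerRS, TyrRS and ValRS, and all 6 stayed called with each embryo left out in turn. ZI094 stood apart in AlaRS and ValRS. Its embryos held 110.9, 120.6 and 120.7 CPM of AlaRS, and the 9 embryos of the other Zambia lines held 51.8 to 66.03 CPM. For ValRS they held 72.43, 74.6 and 69.28 CPM against 20.45 to 28.35 CPM. The adjusted p was 6.74e-07 for AlaRS and 1.16e-07 for ValRS (edgeR's quasi-likelihood test). At stage 2 ZI094 was within the range of the other Zambia lines for both genes.

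SerRS divided the Zambia lines otherwise at stage 5. ZI160 and ZI470 had means of 9.66 ± 1.96 and 9.73 ± 2.12 CPM, and ZI050 and ZI094 had 29.9 ± 1.74 and 25.1 ± 0.88 CPM (SD, n = 3 embryos; adjusted p = 2.7e-06, edgeR's quasi-likelihood test). The Raleigh lines, at 19.1 to 27.4 CPM, were above the lower pair and overlapped the higher pair. LysRS ran from 167.4 ± 6.30 CPM in ZI160 to 346.9 ± 7.27 in ZI050 (adjusted p = 4.37e-06), TyrRS from 136.9 ± 2.47 in ZI470 to 204.0 ± 3.62 in ZI050 (adjusted p = 5.5e-05) and GluProRS from 63.5 ± 10.2 in ZI470 to 102.4 ± 15.4 in ZI094 (adjusted p = 0.00219). No line was highest or lowest in all of these members. With 0.5 CPM added, the ratio of the highest to the lowest Zambia line at stage 5 had a median of 1.62 over the 10 members, against 1.52 over all genes tested. In Raleigh it was 1.59 against 1.55. At stage 2 the medians were 1.12 in Raleigh and 1.19 in Zambia, against 1.22 over all genes in both. For ThrRS the highest to lowest ratio at stage 5 was 1.66 in Raleigh and 1.17 in Zambia.

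The 10 cytosolic synthetase genes outside the member list also fell as a group. By edgeR's quasi-likelihood test 9 of them were lower at stage 5 in Raleigh and 9 in Zambia, with median log2 changes of -2.09 and -2.36. Over all genes tested 35.8% were called lower in Raleigh and 36.1% in Zambia. MetRS, for methionine, which also charges the initiator tRNA, fell furthest, with log2 changes of -4.13 in Raleigh and -4.55 in Zambia. IleRS, for isoleucine, was the exception, with changes of 0.12 (adjusted p = 0.12) in Raleigh and 0.16 (adjusted p = 0.00161) in Zambia. Between populations 0 of the 10 were called at either stage by edgeR's quasi-likelihood test, and 0 by DESeq2. Over all genes tested edgeR called 6.75% at stage 2 and 13.3% at stage 5, so 0 of 10 is near that share. At each stage 3 of the 10 had an unadjusted p under 0.05. So did 2297 of all 7566 genes tested at stage 2 and 3835 of 10000 at stage 5. In the interaction 0 were called, against 5.57% of all genes tested, with 5 at an unadjusted p under 0.05 and 1 called by DESeq2. Their log2 differences at stage 5 ran from -0.31 to 0.31. Over all 8 lines the level of IleRS per length at stage 5 was 85.9 CPM per kb, next to LysRS with 103.1 and TyrRS with 98.8, and the line ranges overlapped. In Raleigh ThrRS came next and overlapped IleRS.

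The scaffold genes of the complex, AIMP1, AIMP2 and AIMP3, were called lower at stage 5 in both populations, with log2 changes of -1.73, -0.69 and -1.55 in Raleigh and -1.97, -0.82 and -1.80 in Zambia. Between populations 0 of 3 were called at either stage by edgeR's quasi-likelihood test, with 0 at an unadjusted p under 0.05 and 0 by DESeq2. Over all genes tested 6.75% were called at stage 2 and 13.3% at stage 5, so 0 of 3 is near that share. Of 16 genes for mitochondrial synthetases and their relative Slimp, which come from the nuclear genome, 11 fell and 3 rose in Raleigh and 13 fell and 2 rose in Zambia. Over all genes tested 35.8% fell and 52.9% rose in Raleigh, and 36.1% fell and 52.5% rose in Zambia. ValRS-m fell most, with log2 changes of -5.85 and -6.50. SerRS-m was the 1 of 16 called between populations at stage 5, higher in Zambia by 0.87 on the log2 scale (SE 0.24, adjusted p = 0.00876, edgeR's quasi-likelihood test), against 13.3% of all genes tested. Its line means overlapped, with 2.45 to 5.29 CPM in Raleigh and 5.11 to 10.5 in Zambia. The Raleigh means were under 8.8 CPM, a level that the shallow library cannot tell from 0. With counts summed per line 0 of the 16 were called at stage 5, and 0 passed an unadjusted threshold of 0.05. Of all 10000 genes tested 1 was called and 1375 passed that unadjusted threshold. At stage 2, 0 of the 16 were called by edgeR's quasi-likelihood test, against 6.75% of all genes tested. An unadjusted p under 0.05 was found for 5, and DESeq2 called 0.

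Of 7 genes tied to uncharged tRNA and to the stress response it shares, 2 were called between populations at stage 5, against 13.3% of all genes tested, and both were higher in Zambia. PEK, the kinase that answers stress in the endoplasmic reticulum by the same phosphorylation as Gcn2, had means of 66.7 ± 18.3 CPM in Raleigh and 133.8 ± 40.1 in Zambia (SD, n = 4 lines). The log2 difference of PEK was 1.03 (SE 0.20, adjusted p = 0.000779, edgeR's quasi-likelihood test). Thor, which encodes the translation repressor 4E-BP, had 4.87 ± 1.73 and 13.7 ± 7.15 CPM, a log2 difference of 1.45 (SE 0.36, adjusted p = 0.00436). The line means of PEK and of Thor did not overlap, as for 7.37% of all genes tested, but the embryos did. The Raleigh line means of Thor were under 8.8 CPM, a level that the shallow library cannot tell from 0. In the interaction, where 5.57% of all genes tested were called, PEK was called (0.94, adjusted p = 0.00242) and Thor was not (1.43, adjusted p = 0.0128). Gcn2 differed at stage 5 by -0.53 (SE 0.22, adjusted p = 0.0811) and crc by 0.04 (adjusted p = 0.823). With counts summed per line 0 of the 7 were called at stage 5, with 2 at an unadjusted p under 0.05. Of all 10000 genes tested those sums called 1. At stage 2, 0 of the 7 were called by edgeR's quasi-likelihood test, against 6.75% of all genes tested. An unadjusted p under 0.05 was found for 2, and DESeq2 called 0. The rise of crc across the MZT was 1.25 on the log2 scale in each population.

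The genes around ThrRS were listed as a description, and the cause of its stage 5 level was not tested. Of 24 genes within 50 kb, 10 passed the filter on low counts at stage 2 and 11 at stage 5. Patsas, the upstream neighbour, lies on the opposite strand and starts 465 bp from the start of ThrRS. Its means at stage 5 were 5.32 ± 1.84 CPM in Raleigh and 3.82 ± 1.22 in Zambia (SD, n = 4 lines). The lowest Raleigh embryo held 0.0 CPM. The shallow library is included in the Raleigh mean, and a level under 8.8 CPM there cannot be told from 0. The log2 difference of Patsas was -0.57 (SE 0.21, adjusted p = 0.0436, edgeR's quasi-likelihood test) at stage 5 and -0.75 (SE 0.27, adjusted p = 0.0623) at stage 2, neither called. Rab6, a GTPase of the Golgi, lies 50 bp downstream on the opposite strand and differed at stage 5 by -0.10 (SE 0.11, adjusted p = 0.548), with 41.7 ± 9.20 and 39.8 ± 5.86 CPM.

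Of the 11 genes near ThrRS tested at stage 5, 2 were called between populations, against 13.3% of all genes, and both were higher in Zambia. DESeq2 called 3, and with counts summed per line 0 were called, with 2 at an unadjusted p under 0.05. Those sums called 1 of all 10000 genes tested. The 2 were JhI-21, 47.7 kb from the start of ThrRS, with a log2 difference of 0.37 (SE 0.10, adjusted p = 0.00746, edgeR's quasi-likelihood test), and the pair-rule gene prd, at 17.9 kb, with 0.27 (SE 0.06, adjusted p = 0.00205). The most negative difference among them was the -0.57 of Patsas. At stage 2, 0 of 10 were called, against 6.75% of all genes tested, with 1 at an unadjusted p under 0.05 and 0 by DESeq2.

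**Figure D5:**
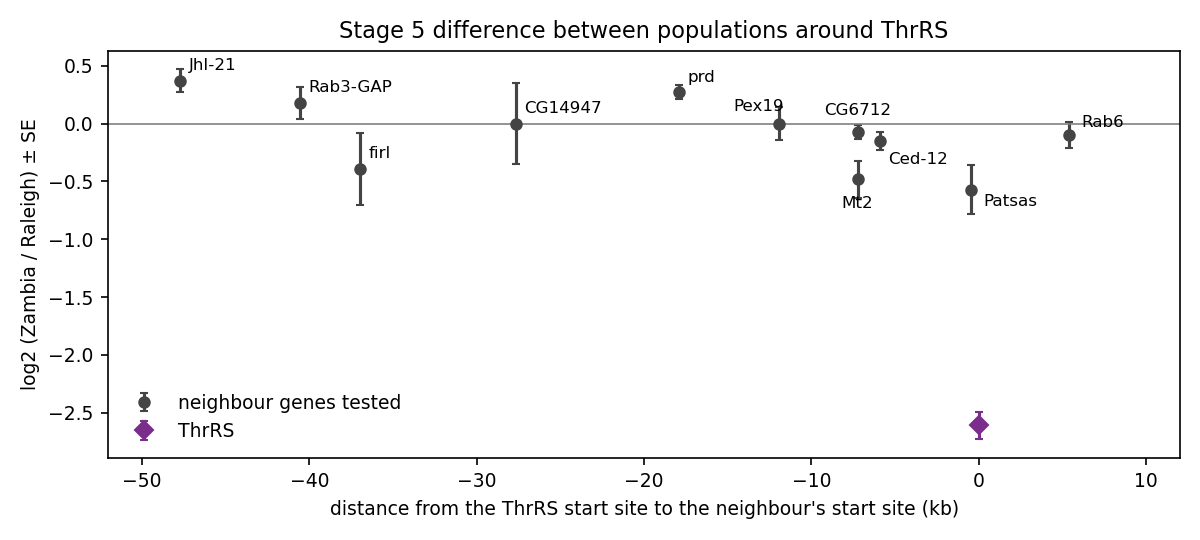
Log2 difference of Zambia against Raleigh (vertical axis) for ThrRS and the genes within 50 kb that were tested at stage 5, against the distance of their start from the start of ThrRS in kb; bars are standard errors. At stage 5 ThrRS lies at -2.61, while its neighbours lie between -0.57 and 0.37.

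The genes whose line means ran most like those of ThrRS were listed as a description, by Pearson's r over the 8 line means of log2(CPM + 0.5), among genes whose lines differed at least 2-fold. Points of one stage share their libraries and the split into populations. At stage 5, out of 4854 genes, these were TBC1D16 (r = 0.971), CRMP (0.959), CG30289 (0.956), CG6118 (0.950) and CtsK1 (0.947). TBC1D16 had 7.39 to 11.1 CPM in the Raleigh lines and 4.01 to 5.36 in the Zambia lines, and CtsK1 had 18.7 to 32.6 and 7.93 to 10.3 CPM, so both were higher in every Raleigh line, by less than ThrRS. At stage 2, out of 1475 genes, they were CG18278 (r = 0.937), CG2641 (0.928), DnaJ-H (0.910), CG1835 (0.906) and CG18233 (0.900). No gene was on both lists. No member was among them, but no member could be listed at stage 2, since none differed 2-fold among lines there. AspRS, GluProRS and TyrRS could not be listed at stage 5 for the same reason. Nothing is therefore read from the absence of members. With Spearman's rho in place of Pearson's r, 1 of the 5 was shared at stage 5, where 9 genes tied for the highest places, and 2 of 5 at stage 2. With a pseudocount of 0.1 or 2 CPM, 4 and 3 of the 5 were shared at stage 5 and 2 of 5 each time at stage 2, so these lists depend on the pseudocount. CG18233 lay near the floor, with line means of 0.021 to 0.592 CPM. The lowest lines of CG6118 (0.078 to 1.526 CPM), CG30289 (0.110 to 1.223 CPM) and CG1835 (0.160 to 0.825 CPM) were near it too.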

How the data were processed

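Single-embryo poly(A) RNA-seq libraries of 8 lines at 2 stages were used. Reads had been cleaned by the authors in Cutadapt 1.7. HISAT2 2.1.0 placed them on the FlyBase 6.18 genome, and featureCounts gave a total for each gene. The deposited values are counts without normalization, in 48 columns. Each column was matched to a line and stage by its name.

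Here R 4.3.3 with edgeR 4.0.16, limma 3.58.1 and DESeq2 1.42.0, and Python 3.11.15 were used. Genes passed filterByExpr by line (minimum count 10, minimum total 15), were normalized by TMM and tested by edgeR's quasi-likelihood test. A call needed a p under 0.01 after Benjamini-Hochberg adjustment over every gene tested. Population was tested over 24 embryos of a stage, stage over 24 embryos of a population with line as a covariate, and the interaction over 48 without line. The members and gene lists were chosen with earlier results of these data known. The named genes were the 10 members, list genes past the test or at an extreme of their list, genes within 50 kb of ThrRS that were called or adjacent, and the 5 genes most like ThrRS per stage. Gene positions come from the BDGP6 annotation, which held 17343 of the 17481 genes. Alternatives were a threshold of 0.05, DESeq2, its size factors, no filter, the replicate number as a block, each embryo left out, sums per line, limma voom with line as a random block, and, for the interaction, line as a covariate. In simulated data for the population test at stage 5, 198 of 200 genes changed 4-fold among 10000 were recovered, with 2 false calls, and for the test among Raleigh lines at stage 5 186 of 200, with 4 false calls. The simulated counts had a dispersion of 0.02 and no spread among lines beyond the planted changes. In the real data the correlation within lines was 0.606 in the voom fit of populations at stage 5. The simulated false calls therefore do not measure the error rate of the population test here. Promoter sequence was not used.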

Additional observations from a re-analysis of the deposited data

Results flagged for a closer look

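In AlaRS at stage 5 the line mean of ZI094 was 117.4 CPM, far from the other 3 Zambia lines, which lay between 56.86 and 62.15 CPM. In ValRS at stage 5 the same line, ZI094, had a mean of 72.1 CPM, and the other 3 lay between 22.55 and 24.48 CPM. In each case the gap to the nearest line made up most of the range of the 4 lines (0.913 and 0.961 of it, above Dixon's 95% critical value for 4 values). Of 40 groups of 4 line means examined in this way, these 2 were flagged. Chance alone gives about 1 in 20 groups, so the number flagged was no more than chance gives. The groups share lines and are not independent, and both flags fell on ZI094. Separately, edgeR's quasi-likelihood test over embryos called both genes among the Zambia lines (adjusted p = 6.74e-07 for AlaRS and 1.16e-07 for ValRS).

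ArgRS stood out because its stage change differed between the populations by the interaction term of edgeR's quasi-likelihood test, at -0.81 on the log2 scale (adjusted p = 0.00198). The ArgRS level was lower at stage 5 in all 8 lines. Without the shallow library RAL360 kept 12.7% of its stage 2 level, less than any Zambia line. The call was lost with counts summed per line (adjusted p = 0.559), where 8 of all 10193 genes were called, and with the replicate block (adjusted p = 0.0138).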

How the results depend on the processing

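In the numbers of members called, the stage 2 count between populations (1) became 0 with limma voom and line as a random block and 0 with sums per line, and was 1 to 2 with one embryo left out (2 without replicate 2 of ZI470, which added AspRS). The stage 5 count (2) became 4 at a threshold of 0.05, 0 with voom, 0 with sums per line and 1 with the replicate block, and was 2 to 3 with one embryo left out. Among Raleigh lines at stage 2 the count (1) became 2 at 0.05 and 0 with the replicate block, and was 0 to 1 with one left out; at stage 5 the count (3) became 6 at 0.05 and was 2 to 4. Among Zambia lines at stage 2 the count (2) became 4 with DESeq2, 1 with no filter and 1 with the replicate block, and was 1 to 5; at stage 5 it was 6 to 7. The interaction count (1) became 3 at 0.05, 3 with voom, 3 with line as a covariate, 0 with the replicate block, 0 with sums per line, and stayed 1 with one embryo left out. The stage counts were 8 to 9 in Raleigh and 8 in Zambia with one embryo left out.

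Of 310 log2 changes of members under alternatives 297 kept their sign, and of 1440 with one embryo left out 30 did not. At stage 5 between populations AspRS became -0.03 with voom, TyrRS 0.03 with the replicate block, and ValRS 0.11 with voom and 0.20 with the replicate block. The stage change of ThrRS in Raleigh became 0.07 with DESeq2 and with its size factors, and that of LysRS in Zambia -0.05 with sums per line. The interaction of AlaRS became -0.05 with DESeq2, -0.05 with its size factors, -0.07 with voom, -0.06 with line as a covariate, -0.02 with the replicate block and -0.02 with sums per line. With one embryo left out AlaRS ran from -0.02 to 0.03 at stage 2, from -0.10 to 0.03 at stage 5 and from -0.11 to 0.02 in the interaction, and ValRS from -0.23 to 0.01 at stage 5. The cause was not tested. Leaving out replicate 3 of RAL360 at stage 5 in the line means was chosen after seeing the data.

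The replicate block left out RAL357, whose columns carry no separate numbers. Same-numbered embryos had a correlation over 0.1 in 16 of 63 pairs at stage 2 and in 10 of 63 at stage 5, and 10 and 9 of 21 embryos correlated best with their own number, so the numbers were not taken as pairs. Over all genes, DESeq2 called 775 between populations at stage 2, against 511, and 2684 and 2390 among Raleigh and Zambia lines at stage 2, against 1540 and 1272. Sums per line called 0, 1 and 8 genes at stage 2, at stage 5 and in the interaction, with 849, 1375 and 913 at an unadjusted p under 0.05. Voom called 27 and 79 at stages 2 and 5, the replicate block 331, 721, 1022 and 344 in the 4 tests where it moved the count by over 1.5 times, and line as a covariate 932 in the interaction, against 568. In the shallow library a gene under 8.8 CPM cannot be told from 0.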
